A study of Ovis aries with 6 samples.

Results

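The nuclei described here come from the sheep rumen wall and were chosen by 5 markers of upper-layer keratinocytes, among them the anion exchanger SLC26A3 and the serine protease TMPRSS11D. Not all of them were shown to be keratinocytes, as given below. A nucleus was taken when at least 3 of TPRG1, TMPRSS11D, SLC26A3, NOS2 and A2ML1 were detected, with at most 3 of 7 genes of the outermost layer (SAMD8, FBXO32, CRISP3, DUSP14, SOBP, MYZAP, SPOCK1), at most 3 of 6 basal genes (TP63, KRT15, SOX6, CDH13, FRAS1, GRIP1) and no molecule of the leukocyte gene PTPRC. These upper-marker nuclei numbered 1699 of the 40419 nuclei with at least 500 detected genes and at most 10% mitochondrial molecules. The nuclei were thus selected on the detection of these 19 genes, so levels of those genes are given as a description with no test. The same holds for every comparison between layers, because the layers were defined in the same counts.

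Single-nucleus RNA was measured in epithelium of the ventral sac of the rumen from 6 male lambs of a study of grazing sheep and supplementary feeding. The lambs fell into the groups MGNS and MGHS, 3 animals each, which the labels do not spell out, and neither age nor breed was given in the sources used here. Each animal gave 1 library, and p-values therefore measure the spread between these 6 animals.

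The rumen is lined by a stratified squamous epithelium. Keratinocytes divide in the basal layer, enter the spinous layer, and become flattened, cornified cells at the surface. On the way they exchange basal for differentiation keratins, assemble desmosomes and tight junctions, and crosslink a protein envelope under the membrane. This epithelium also absorbs the short-chain fatty acids made by fermentation, in part in exchange for bicarbonate, and turns butyrate into ketone bodies. Of the 5 markers, SLC26A3 exchanges chloride for bicarbonate, TMPRSS11D is a membrane-bound serine protease of squamous and airway epithelia, NOS2 is the inducible nitric oxide synthase and A2ML1 is a protease inhibitor of keratinocytes. TPRG1 is a gene near TP63 in mammalian genomes whose product is little characterised.

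The libraries held from 34418856 to 59997793 unique molecular identifiers (UMIs, counted molecules). The group MGNS gave 132, 261 and 283 upper-marker nuclei in animals 1, 2 and 3, and MGHS gave 240, 179 and 604. MGHS 3 thus supplied the largest number of any animal. Of 40232 distinct barcodes past the filters, 186 occurred in more than 1 library. Barcodes that were upper-marker nuclei in more than 1 library numbered 0. Whether any of the 186 was an upper-marker nucleus in 1 library was not counted. MGNS 2 stood apart in the markers themselves: SLC26A3 was detected in 17.6% and NOS2 in 2.30% of its upper-marker nuclei, against 72.4% to 93.9% and 25.4% to 54.6% in the other 5 animals. In MGNS 2, 228 of 261 nuclei had exactly 3 markers, and the low SLC26A3 and NOS2 were shared by its outermost nuclei.

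The name upper keratinocyte did not hold for all of the nuclei. The median UMI count of an upper-marker nucleus was 11390, 11909 and 8659 in MGNS and 6666, 7050 and 5424 in MGHS, so that every MGNS animal lay above every MGHS animal (difference of means -4273; exact two-sided permutation test over animals, p = 0.1, the smallest p that 3 against 3 allows). At least 6 of 47 fibroblast, smooth muscle, endothelium and glia markers were detected in 11.4%, 5.75% and 16.6% of the nuclei in MGNS and in 28.3%, 17.9% and 34.3% in MGHS, without overlap (exact permutation p = 0.1). These are called stromal-marker nuclei below, and 384 of the 1699 were of this kind. The other layers held such nuclei too. They made up 12.8%, 11.6% and 14.7% of outermost nuclei in MGNS and 15.3%, 11.8% and 23.2% in MGHS. Over all animals they were 5.61% to 19.8% of basal and 3.05% to 11.8% of spinous nuclei. The 5 markers together held no larger a share of UMIs than in near-empty barcodes of the same library, those with under 400 UMIs, in 9.85%, 16.1% and 18.7% of the nuclei in MGNS and in 43.8%, 20.7% and 41.7% in MGHS (502 nuclei; exact permutation p = 0.1). Mitochondrial molecules made up a median of 0.328%, 0.201% and 0.444% in MGNS and 0.919%, 0.486% and 0.705% in MGHS. Depth, stromal markers, the share of nuclei at or below the library background and group therefore moved together. Clear of both the stromal markers and the library background were 1091 nuclei: 87.1%, 82.0% and 73.9% in MGNS and 48.8%, 73.7% and 50.3% in MGHS. The part of depth, stromal markers and background in the differences between groups below was tested only as far as values without stromal-marker or background nuclei are given.

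**Figure D1:**
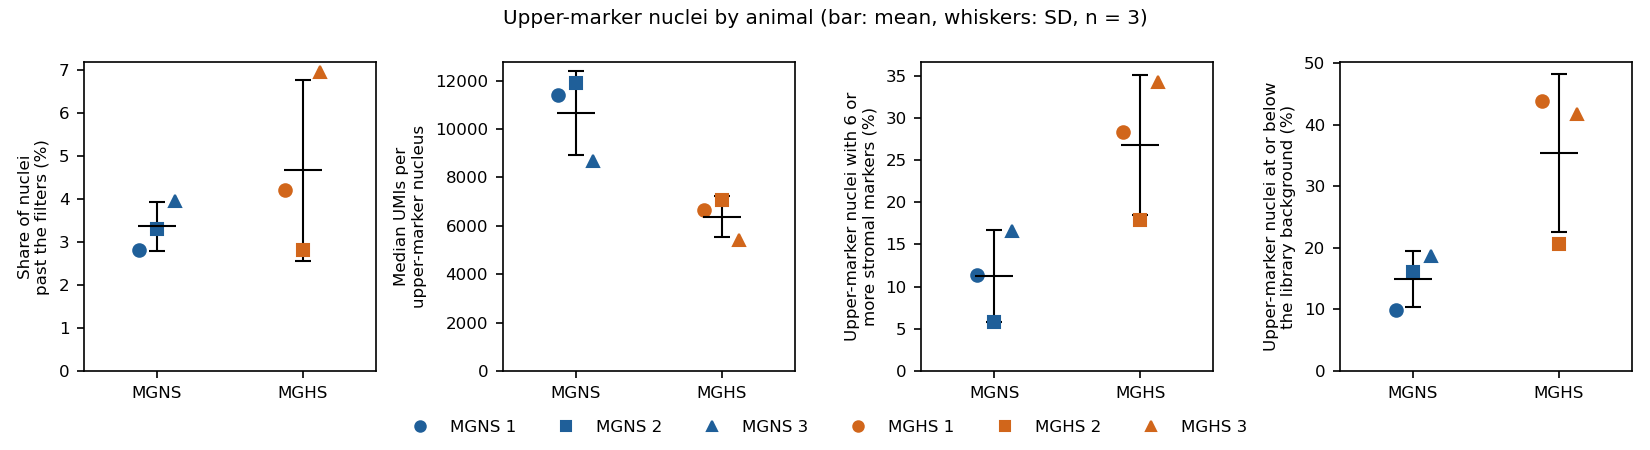
Upper-marker nuclei in each animal (symbols 1, 2 and 3; bar and whiskers, mean and SD of 3 animals), from left to right as a share of nuclei past the filters (%), by median UMIs, by the share with at least 6 stromal markers (%) and by the share at or below the library background (%). The groups overlap in the first panel and not in the other 3: medians of 8659 to 11909 UMIs in MGNS against 5424 to 7050 in MGHS.

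Summed over each animal's upper-marker nuclei, the fibroblast markers reached 948, 337 and 896 CPM (UMIs of a gene, scaled to a fixed total of UMIs of the pooled nuclei) in MGNS and 2691, 830 and 3571 in MGHS. Without the stromal-marker nuclei they came to 52.8, 58.0 and 72.9 in MGNS and 145, 87.3 and 260 in MGHS, where the groups no longer overlapped. None of the 14 fibroblast markers was at 0 in every animal; COL3A1 and COL1A2, the fibrillar collagens, led the list. The endothelial markers summed to 297, 195 and 368 CPM in MGNS and 383, 689 and 696 in MGHS, and without the stromal-marker nuclei to 129, 116 and 237 CPM against 152, 224 and 194 CPM, with overlap. Fibroblast and endothelial markers are among the 47 that chose the stromal-marker nuclei, so a fall in both sums followed from that choice. Markers of T or NK cells summed to 88.4 to 152 CPM over all animals, with none of 16 at 0 in every animal. Of 16 macrophage or dendritic markers 1, CLEC9A, was at 0 in all 6 animals, and the list summed to 88.1 to 162 CPM. Of 9 glial markers 2, SOX10 among them, were at 0 in all 6 animals. The glial list, which includes ERBB3, summed to 156 to 269 CPM.

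Upper-marker nuclei were 2.83%, 3.30% and 3.97% of all nuclei in MGNS, with 95% Wilson intervals of 2.39% to 3.34%, 2.93% to 3.72% and 3.54% to 4.45%. In MGHS they were 4.22%, 2.82% and 6.96%, with intervals of 3.73% to 4.78%, 2.44% to 3.25% and 6.45% to 7.52%; the intervals cover counting error only. MGHS 3 was high, MGHS 2 was level with MGNS 1, and the groups overlapped: 3.37% ± 0.573 (SD, n = 3) against 4.67% ± 2.11 (SD, n = 3), with p = 0.5 in the exact two-sided permutation test. Thinned to 2000 UMIs per nucleus, the shares were 4.09% ± 1.07 and 5.04% ± 1.99 (exact p = 0.4, n = 3 each). The thinned rule took partly other nuclei: 68 of 122, 124 of 289 and 150 of 289 in MGNS and 97 of 256, 88 of 158 and 230 of 495 in MGHS were also upper-marker nuclei at full depth. Without the stromal-marker nuclei they were 2.98% ± 0.419 and 3.31% ± 1.16 (exact p = 0.9, n = 3 each), and the difference of 1.30 percentage points was 0.0416 with only nuclei above the library background and 0.154 without MGHS 3.

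The balance with the outermost layer did not overlap between the groups. Outermost nuclei, which carry at least 4 of the 7 outermost genes, were 3.34%, 4.58% and 6.76% of nuclei in MGNS and 17.2%, 15.4% and 12.5% in MGHS. For each outermost nucleus there were 0.846, 0.721 and 0.587 upper-marker nuclei in MGNS and 0.246, 0.183 and 0.555 in MGHS (exact two-sided permutation test, p = 0.1, the smallest possible). MGHS 3 lay close to MGNS 3 on this ratio. Among the nuclei of the basal, spinous, upper-marker and outermost layers together, upper-marker nuclei made up 14.7%, 18.2% and 16.3% in MGNS and 13.5%, 7.87% and 21.3% in MGHS, with overlap (difference of means -2.16 percentage points, exact p = 0.7); without MGHS 2 the difference turned to 1.03.

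The 5 markers were not at their highest in these nuclei. TMPRSS11D stood at 599, 694 and 450 CPM in MGNS and 422, 475 and 529 in MGHS, against 1400 to 2643 CPM in outermost nuclei and 9.38 to 187 CPM in spinous nuclei. SLC26A3 stood at 1766, 35.2 and 1213 CPM in MGNS and 1563, 1869 and 1351 in MGHS, and at 6306, 648 and 4933 CPM and 6667, 3470 and 4363 CPM in the outermost nuclei of the same animals. TPRG1 ran from 406 to 1223 CPM, against 994 to 2490 CPM in the outermost layer. In every animal TMPRSS11D, SLC26A3 and TPRG1 were thus lower in the upper-marker than in the outermost nuclei and higher than in the spinous ones. NOS2 stood at 263, 4.52 and 188 CPM in MGNS and 122, 75.2 and 152 in MGHS, again under the outermost layer in each animal. A2ML1 was the exception: at 4950 to 11720 CPM it was below the outermost level (5686 to 12380 CPM) in 4 of 6 animals, above it in MGHS 1 and MGHS 2, and above the spinous level of 1925 to 5026 CPM. The 2 layers overlapped in the markers: 3598 of the 4040 outermost nuclei also carried at least 3 of the 5 markers and were kept apart only by the outermost genes.

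**Figure D2:**
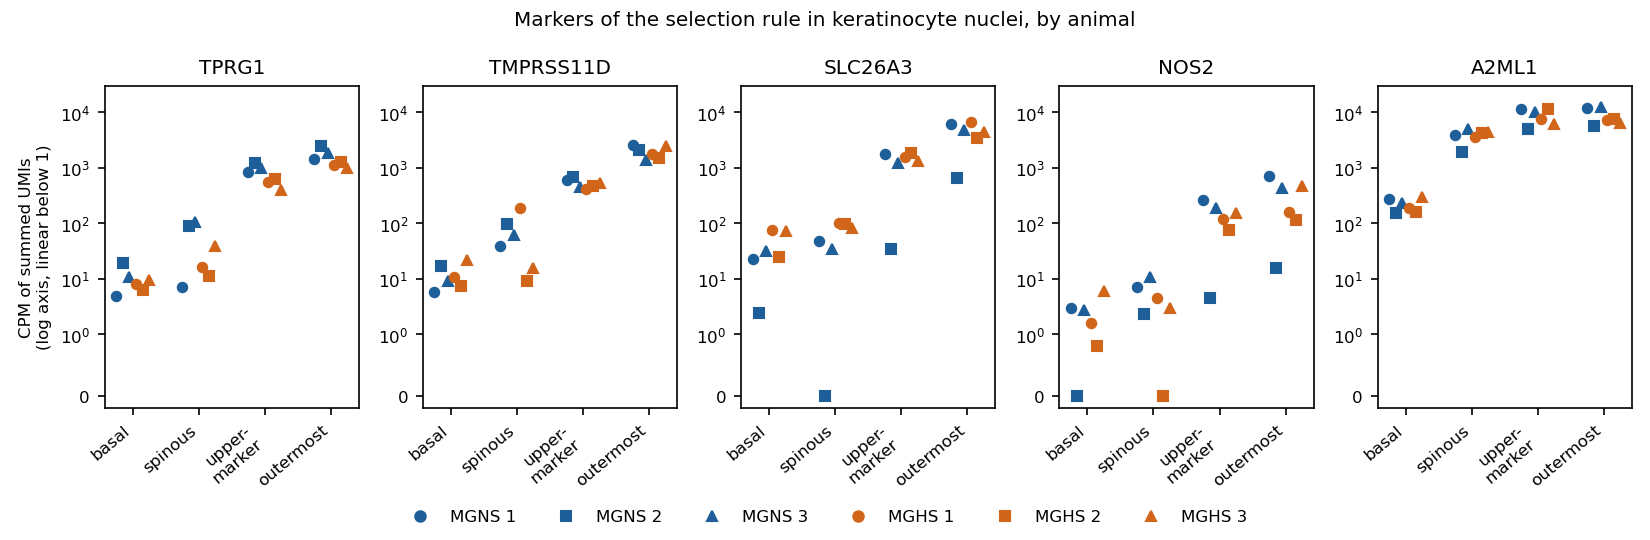
Level of each of the 5 markers (CPM of summed UMIs; log axis, linear below 1) in basal, spinous, upper-marker and outermost nuclei, 1 symbol per animal. TPRG1, TMPRSS11D, SLC26A3 and NOS2 were lower in the upper-marker than in the outermost nuclei of each animal, and MGNS 2 is the low point for SLC26A3 and NOS2.

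Molecules of SLC26A3 and A2ML1 were also detected in nuclei with the leukocyte gene PTPRC. SLC26A3 was detected in 80.3%, 17.6% and 72.4% of upper-marker nuclei in MGNS and 93.3%, 93.9% and 88.1% in MGHS. In nuclei with PTPRC the shares were 23.8%, 6.84% and 28.2% in MGNS and 50.7%, 23.6% and 48.7% in MGHS, at median depths of 3260 to 4745 UMIs. Any molecule of PTPRC placed a nucleus in this set, and not all of these nuclei were shown to be leukocytes. After thinning to 2000 UMIs, SLC26A3 was detected in 53.8%, 4.82% and 45.5% of upper-marker nuclei in MGNS and 56.6%, 71.5% and 59.4% in MGHS, against 0.299% to 15.7% of basal nuclei. In PTPRC nuclei thinned alike the shares were 12.7%, 4.12% and 18.8% in MGNS and 35.7%, 17.6% and 29.8% in MGHS, so that in MGNS 2 the upper-marker nuclei were at the level of the PTPRC nuclei. A2ML1 had a molecule in 98.2% to 100% of upper-marker nuclei and in 41.3% to 68.9% of PTPRC nuclei. TMPRSS11D and TPRG1 were sparser in PTPRC nuclei (10.0% to 30.8% and 8.82% to 19.7%). They were found together in 69.7%, 93.5% and 64.7% of upper-marker nuclei in MGNS and 38.3%, 49.2% and 40.2% in MGHS. These joint shares depend on the rule, which asks for at least 3 of the 5 markers. In MGNS 2, where SLC26A3 and NOS2 were rare, most nuclei could meet it only with both genes.

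At the edge of the rule, 1006 of the 1699 nuclei had exactly 3 markers, 457 had 4 and 236 had all 5. Nuclei with exactly 3 had a median of 7658 to 11560 UMIs in MGNS and 4158 to 4763 UMIs in MGHS, and 6.14% to 23.4% and 28.1% to 44.3% of them were stromal-marker nuclei. Just outside, 2450 nuclei had 2 markers and met the other conditions; their stromal-marker share was 26.4% to 52.9% in MGNS and 49.6% to 55.5% in MGHS. A further 568 nuclei missed the rule only by having 4 outermost genes, 188 only by having 4 basal genes and 882 only by PTPRC.

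The nuclei were graded among themselves. Of the 7 outermost genes, 108 nuclei had 0 detected, 381 had 1, 590 had 2 and 620 had 3. Without the stromal-marker nuclei these classes held 62, 280, 471 and 502 nuclei, the first with only 5 to 18 per animal. KRT78, a keratin of late squamous differentiation, then averaged 206, 448, 647 and 975 CPM over these 4 classes. It was higher at 3 than at 1 in 6 of 6 animals. SPINK5, the inhibitor of epidermal kallikreins, averaged 1587, 2326, 2754 and 3136 CPM, and IL36A, an epithelial cytokine of the interleukin-1 family, 232, 395, 446 and 634 CPM, both with the same order in 6 of 6 animals. CA1, a cytosolic carbonic anhydrase, went the other way with 6496, 3530, 3266 and 2130 CPM. So did KRT6A, a keratin of the suprabasal layers, with 6456, 6676, 6165 and 5408 CPM: both were lower at 3 than at 1 in every animal. Involucrin (IVL), DSC1 and DSG1 were higher at 3 than at 1 in 5 of 6 animals, and TGM3 and CERS3 in 3 of 6. The classes also differ in how deeply a nucleus was read, which was not adjusted for, and these values are a description.

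**Figure D3:**
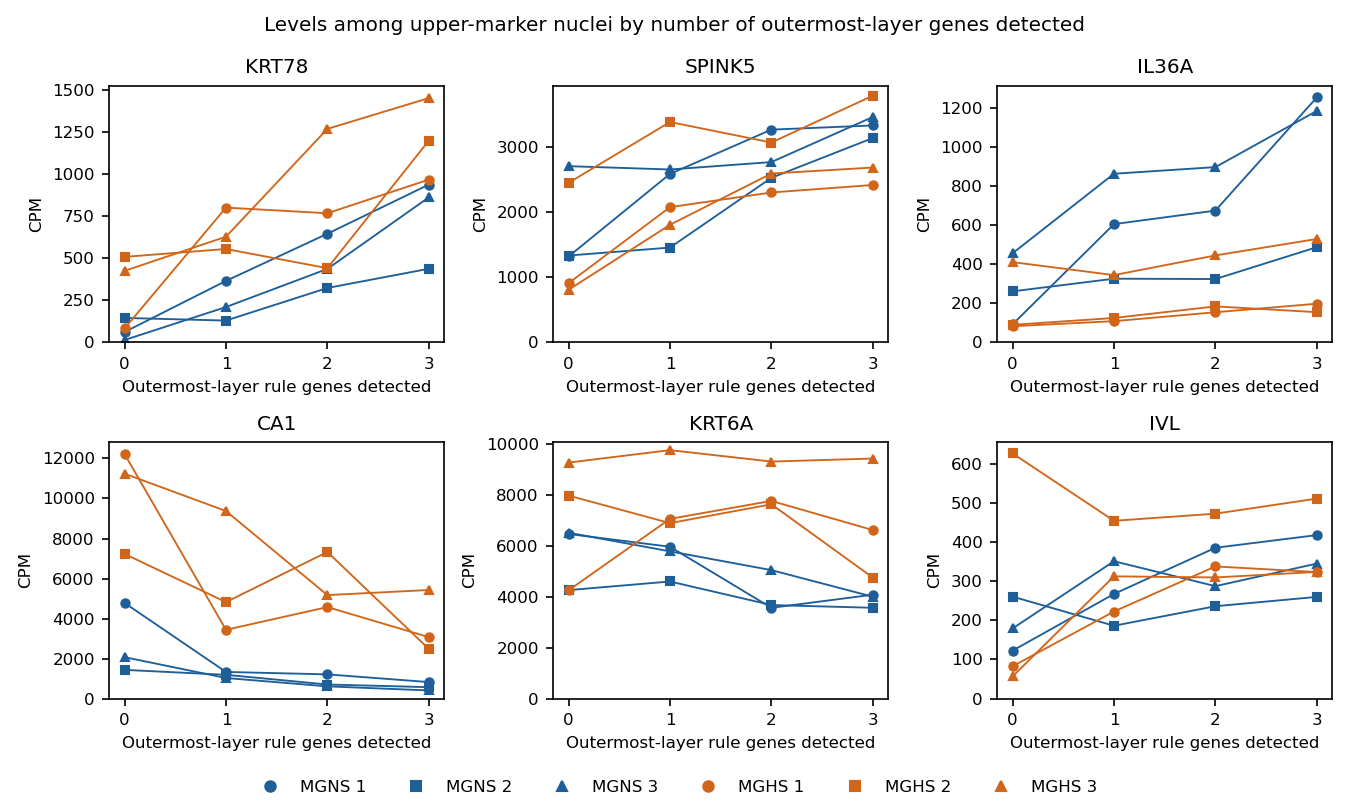
Levels (CPM) of 6 genes among upper-marker nuclei without stromal-marker nuclei, by the number of outermost-layer rule genes detected (0 to 3), 1 line per animal. KRT78, SPINK5 and IL36A lay higher at 3 genes than at 1 in 6 of 6 animals, CA1 and KRT6A lower in all 6, and IVL higher in 5 of 6.

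The genes that stood highest in upper-marker nuclei relative to the basal, spinous and outermost nuclei were few and modest. Of 6349 genes at 20 CPM or more, 109 were highest in the upper-marker nuclei of all 6 animals. XDH, which makes uric acid from xanthine, averaged 7.78 CPM in basal, 181 in spinous, 318 ± 242 (SD, n = 6) in upper-marker and 121 in outermost nuclei. BNIP3, a mitophagy receptor of the outer mitochondrial membrane, averaged 29.7, 136, 395 ± 126 and 215 CPM. B4GALT4, a galactosyltransferase, averaged 19.8, 139, 253 ± 62.0 and 137 CPM. XDH, BNIP3 and B4GALT4 were highest in 6 of 6 animals; ARG1, the urea-forming arginase, was so in 5 of 6, at 1.82, 24.1, 85.7 ± 26.0 and 45.1 CPM. The excess over the next layer was small, 0.85 for XDH and 0.80 for BNIP3 as the mean log2 ratio after adding 10 CPM to both levels. Of the 25 leading genes, 18 also led without the stromal-marker nuclei. Those that did not included the endothelial genes EMCN, which went from 33.5 to 1.37 CPM, and PECAM1, which went from 56.1 to 5.39 CPM. EMCN and PECAM1 are themselves among the 47 markers by which nuclei were left out, so their fall followed from that choice. IVL entered the list once stromal-marker nuclei were left out.

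Sodium-proton exchange genes lay between the spinous and the outermost layer. Among 15 sodium-proton exchange genes, 10 reached 20 CPM in some layer and 8 of these had an upper-marker mean between the means of those layers. This position was not particular to them. It was held by 25 of 25 oxidative phosphorylation genes, 11 of 11 keratins and 14 of 17 tight junction genes at 20 CPM. Fewer held it among cornified-envelope genes (5 of 12) and interferon-response genes (3 of 18). The share over all genes was not counted. SLC9A2, an apical sodium-proton exchanger, averaged 13.0, 128, 355 ± 124 (SD, n = 6) and 1059 CPM in basal, spinous, upper-marker and outermost nuclei. SLC9A3, the exchanger of absorptive epithelia, averaged 9.41, 79.5, 206 ± 75.4 and 399 CPM. Both were above spinous and below outermost nuclei in 6 of 6 animals. Of the 10 sodium-proton exchange genes, 4 had their highest mean in spinous, 3 in outermost, 2 in upper-marker and 1 in basal nuclei. PADI1, which deiminates arginine in structural proteins, averaged 6.85, 13.2, 142 ± 88.8 and 1231 CPM, and NEDD4L, a ubiquitin ligase of the epithelial sodium channel, 113, 158, 444 ± 148 and 1778 CPM.

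Cornified-envelope genes were different. Of 23 such genes, 12 reached 20 CPM and 7 had their highest mean in the upper-marker nuclei. Over all genes outside the rule this held for 1221 of 8341 (14.6%). IVL, an envelope precursor, averaged 11.4, 93.8, 308 ± 86.4 and 203 CPM over the 4 layers, TGM1, the membrane transglutaminase, 22.9, 285, 382 ± 117 and 309 CPM, and TGM5, another transglutaminase, 7.81, 44.9, 73.9 ± 32.2 and 30.1 CPM. IVL, TGM1 and TGM5 were highest in upper-marker nuclei of all 6 animals. TGM3 was so in 5 of 6, at 129, 1194, 1849 ± 1215 and 1279 CPM. Of the desmosome genes, which hold neighbouring keratinocytes together, 10 of 20 had their highest mean in spinous and 7 in upper-marker nuclei. The shares over all 8341 genes were 22.4% and 14.6%. None of the 7 was highest in upper-marker nuclei of 6 of 6 animals. DSC1, one of the genes that define the spinous nuclei, averaged 132, 2552, 3192 ± 1110 and 1087 CPM. The protease inhibitor SERPINB13 averaged 24.2, 321, 374 ± 80.6 and 107 CPM and was highest here in 6 of 6 animals, whereas SPINK5 went on to 6895 CPM in outermost nuclei from 2556 ± 478.

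Many interferon-response genes also had their highest mean over animals in these nuclei. Of 27 listed, 18 reached 20 CPM, and 14 of those had their highest mean here, against 1221 of 8341 genes (14.6%) outside the rule. The animals differed widely: the list summed to 1847, 2978 and 639 CPM in MGNS and 2487, 2531 and 664 in MGHS. STAT2, a transcription factor of the interferon pathway, averaged 19.1, 67.9, 80.9 ± 18.2 and 29.0 CPM over the 4 layers. EIF2AK2, the kinase that senses double-stranded RNA, averaged 118, 349, 424 ± 155 and 231 CPM, and PARP9, 18.7, 39.7, 75.9 ± 36.4 and 51.0 CPM. Only STAT2, EIF2AK2 and PARP9 of the 18 were highest here in 6 of 6 animals, and MX1, an antiviral GTPase, in 5 of 6 at 49.96, 144, 234 ± 150 and 117 CPM. Of the NF-kB, sensor and cytokine genes, by contrast, 14 of the 24 at 20 CPM were highest in outermost nuclei, among them IL1A and NFKBIZ. Over all 8341 genes that share was 16.3%.

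Fatty-acid uptake, ketone body and respiration genes mostly had their highest mean in the basal layer and were lower here. The monocarboxylate transporter SLC16A1 averaged 925 CPM in basal and 48.0 ± 43.2 CPM in upper-marker nuclei. The highest mean was basal for 8 of 10 ketogenesis genes, 24 of 25 oxidative phosphorylation genes and 19 of 19 cell cycle genes at 20 CPM. Over all genes outside the rule it was basal for 3888 of 8341 (46.6%). Outermost nuclei were lower still. The summed ketogenesis list averaged 2431, 1558, 874 and 328 CPM in basal, spinous, upper-marker and outermost nuclei. The oxidative phosphorylation list averaged 7048, 4666, 2722 and 1072 CPM. The sodium-coupled monocarboxylate transporter SLC5A8 ran the other way, from 2.05 CPM in basal to 46.7 ± 40.4 in upper-marker and 231 CPM in outermost nuclei. The urea transporter SLC14A1 averaged 427 ± 300 CPM here and 1344 CPM in the outermost layer, with 0 CPM in the upper-marker nuclei of MGNS 2. AQP3, a channel for water and glycerol, averaged 29.1, 67.2, 87.4 ± 40.8 and 21.4 CPM and was highest in upper-marker nuclei of 5 of 6 animals.

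Whether the groups differed within these nuclei was asked on summed counts per animal. No gene passed: edgeR's quasi-likelihood test with Benjamini-Hochberg adjustment called 0 of 11063 genes (0%) at an adjusted p under 0.05, with a smallest adjusted p of 0.0773. Unadjusted p-values under 0.05 were held by 2100 genes (19%). DESeq2 called 381 genes (3.57%; 204 higher and 177 lower in MGHS) and limma-voom 21 (0.19%; 2 higher, 19 lower). With the replicate number as a block edgeR called 65 genes (0.588%), and in the nuclei with at most 1 outermost gene 161 (2.32%). Stromal markers were more frequent in MGHS in those nuclei, as in all upper-marker nuclei, and their part in the calls was not tested. The values below are therefore levels that did not pass the test, and differences are on the log2 scale of MGHS over MGNS with their standard errors. In 24.5% of all genes the 3 animals of one group did not overlap with the 3 of the other, 12.3% with MGHS higher and 12.2% with MGHS lower. Without stromal-marker nuclei, 2 of 9530 genes (0.021%) passed, GLRX5 higher and PROM1 lower in MGHS. With only nuclei whose markers lay above the library background, 0 of 9757 genes passed in edgeR's quasi-likelihood test, and 987 were under 0.05 before adjustment.

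Of the 10 named genes with the smallest p on the lower side, SLC5A1, the sodium-glucose cotransporter, stood at 212, 280 and 205 CPM in MGNS and 33.0, 40.4 and 55.9 in MGHS. The groups lay far apart (log2 difference -2.40 ± 0.27, SE; edgeR quasi-likelihood adjusted p = 0.0773), and the difference was -2.14 without stromal-marker nuclei and -2.13 above the library background. PROM1, a membrane protein of apical protrusions, stood at 66.2, 76.8 and 110 CPM in MGNS and 1.18, 6.96 and 5.95 in MGHS. Its difference was -4.12 ± 0.51 (edgeR quasi-likelihood adjusted p = 0.0773), and -4.06 without stromal-marker nuclei, where the adjusted p was 0.0479 in a range over all alternatives of 1.33e-13 to 0.226. SLC28A3, a nucleoside transporter, stood at 153, 328 and 280 CPM in MGNS and 22.4, 42.5 and 26.9 in MGHS.

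PGLYRP4, a peptidoglycan-binding antibacterial protein, was similarly tight within groups, at 207, 219 and 241 CPM in MGNS and 63.7, 65.4 and 94.2 in MGHS. PLA2G4E, a cytosolic phospholipase and N-acyltransferase, stood at 687, 846 and 754 CPM in MGNS and 277, 278 and 279 in MGHS. MALT1, a paracaspase that relays signals to NF-kB, stood at 197, 177 and 191 CPM in MGNS and 67.8, 80.0 and 56.1 in MGHS. The kinase MAP3K5, the ephrin receptor EPHA4 and the heparan sulfate proteoglycan SDC4 had differences of -1.79 ± 0.27, -1.86 ± 0.25 and -1.86 ± 0.29, each with an edgeR quasi-likelihood adjusted p of 0.0926. XDH, which led the layer comparison, stood at 422, 469 and 676 CPM in MGNS and 159, 59.8 and 122 in MGHS (-2.21 ± 0.37).

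On the higher side, GLRX5, a mitochondrial iron-sulfur glutaredoxin, stood at 8.36, 8.39 and 8.34 CPM in MGNS and 33.0, 45.9 and 41.4 in MGHS. Its difference was 2.28 ± 0.28 (edgeR quasi-likelihood adjusted p = 0.0773), and 2.55 without stromal-marker nuclei, where the adjusted p was 0.0479 in a range over all alternatives of 7.49e-05 to 0.243. CA1 stood at 1116, 760 and 694 CPM in MGNS and 3240, 4658 and 5540 in MGHS, a difference of 2.40 ± 0.37, and 2.04 above the library background. SELENOW, a small selenoprotein, stood at 13.2, 9.36 and 10.3 CPM in MGNS and 54.3, 30.6 and 77.4 in MGHS; its difference went from 2.33 to 1.55 above the library background. CMTM8, a membrane protein linked to EGF receptor turnover, stood at 9.06, 5.49 and 5.56 CPM in MGNS and 28.3, 27.8 and 26.1 in MGHS, but at 0 to 1.37 CPM and 0 to 2.64 CPM without stromal-marker nuclei.

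The other genes on that side were low or near 0 without the stromal-marker nuclei, or differed less. CADM2, a neural adhesion molecule, stood at 4.88, 2.26 and 5.96 CPM in MGNS and 115, 36.9 and 48.6 in MGHS. Without stromal-marker nuclei it was at 1.55, 2.40 and 2.82 CPM and 3.87, 4.08 and 6.03 CPM, too low to be tested. DLGAP1, a synaptic scaffold protein, had a difference of 1.79 ± 0.31 that was 0.39 without them. ADAMTS19 stood at 0.697, 2.91 and 1.99 CPM in MGNS and 67.2, 12.5 and 48.4 in MGHS, and ZNF521, a mesenchymal and progenitor transcription factor, at 39.0, 20.7 and 35.8 CPM and 158, 88.4 and 134 CPM. ZNF521 came to 1.88 to 4.66 CPM and 1.63 to 9.42 CPM without stromal-marker nuclei. The matrix proteases ADAMTS12 (2.40 ± 0.41) and ADAMTS1 (2.04 ± 0.35) made up the 10, and were at most 2.33 and 1.88 CPM in MGNS and 3.39 and 4.89 CPM in MGHS without those nuclei. MGHS 1 was the highest animal for CADM2, ADAMTS19 and ZNF521.

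Among the function lists with at least 10 tested genes, those of NF-kB, sensors and cytokines had the lowest median in MGHS. Of 28 tested, 23 were below 0, 14 did not overlap on the lower side and 0 on the higher side (12.2% and 12.3% of all genes), and 0 passed the test; the median difference was -0.76, against 0.04 over all tested genes, and -0.84 without stromal-marker nuclei. NFKB1, the p105/p50 subunit, stood at 390, 481 and 529 CPM in MGNS and 235, 182 and 173 in MGHS (-1.23 ± 0.24; edgeR quasi-likelihood adjusted p = 0.141). IL36B, an interleukin-1 family cytokine, stood at 180, 143 and 236 CPM in MGNS and 31.3, 61.2 and 67.5 in MGHS. CCL20, a chemokine for CCR6-bearing leukocytes, stood at 381, 58.7 and 1153 CPM in MGNS and 23.6, 25.1 and 35.7 in MGHS; MGNS 2 was far below the other MGNS animals. TNFAIP3, the ubiquitin-editing brake on NF-kB, stood at 22.3, 21.0 and 43.7 CPM in MGNS and 8.26, 6.26 and 16.04 in MGHS.

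**Figure D4:**
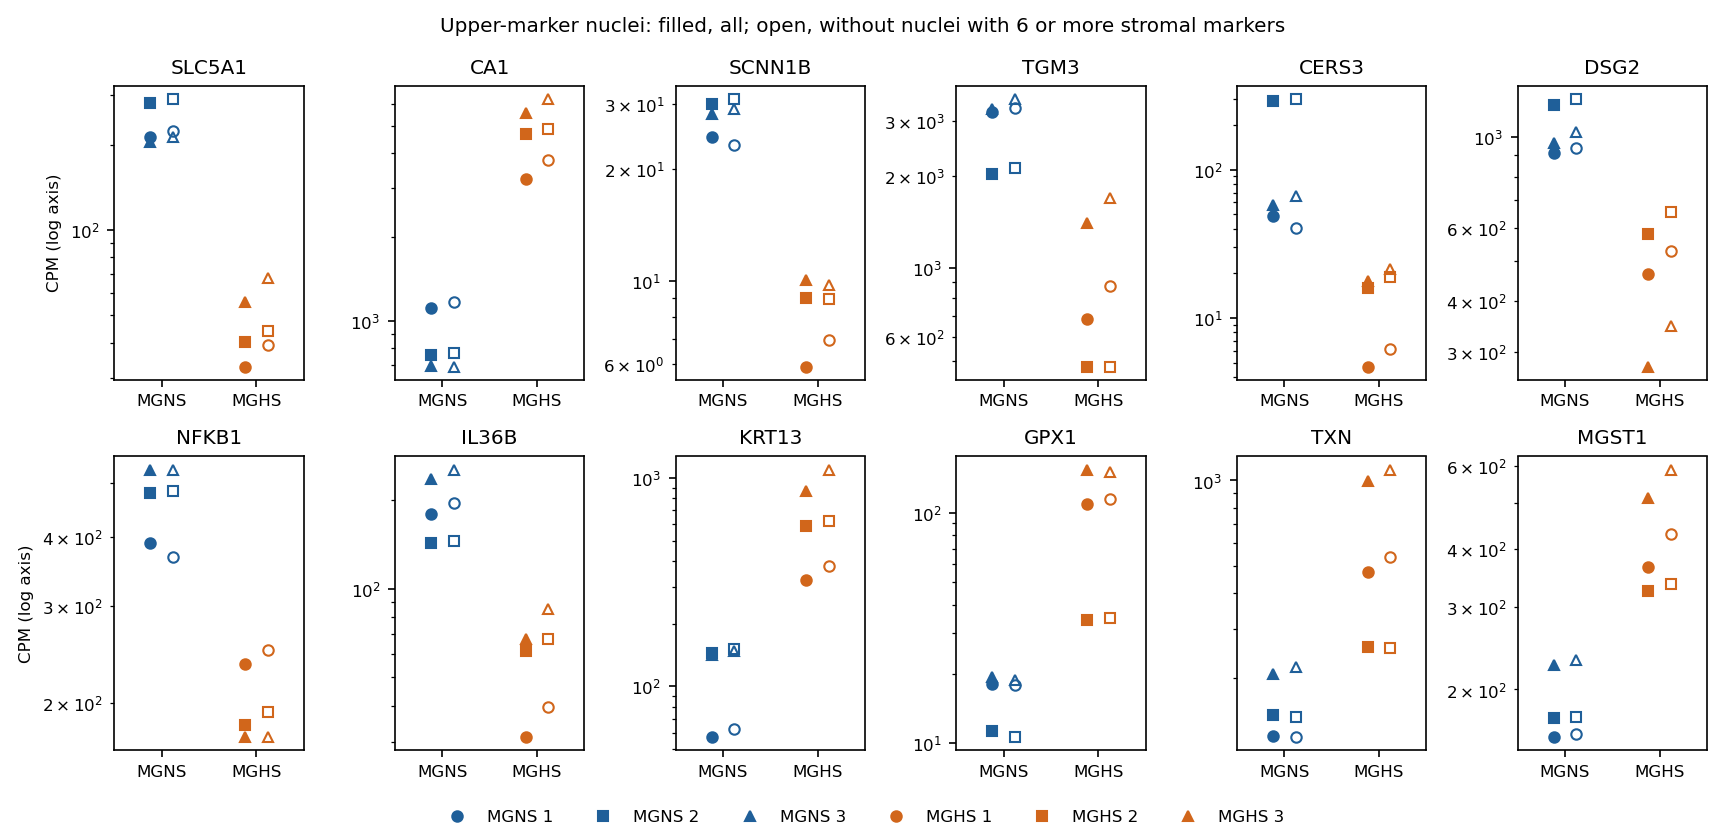
Levels (CPM, log axis) of 12 genes in the upper-marker nuclei of each animal, MGNS on the left and MGHS on the right of each panel; filled symbols, all upper-marker nuclei; open symbols, without stromal-marker nuclei. SLC5A1 lies at 205 to 280 CPM in MGNS and 33.0 to 55.9 in MGHS, and CA1, KRT13, GPX1, TXN and MGST1 lie higher in every MGHS animal; none passed the test.

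Tight junction, desmosome and barrier lipid genes mostly lay lower in MGHS. Of 19 tight junction genes 18 were below 0 (median -0.53), of 19 desmosome genes 15 (median -0.40) and of 21 barrier lipid genes 16 (median -0.56); without stromal-marker nuclei the medians were -0.31, -0.18 and -0.52. DSG2, a desmosomal cadherin, stood at 912, 1196 and 965 CPM in MGNS and 465, 580 and 277 in MGHS. CERS3, the ceramide synthase of very long acyl chains, stood at 48.8, 289.8 and 58.0 CPM in MGNS and 4.72, 16 and 17.9 in MGHS, with a difference of -3.28 that was -2.07 without MGNS 2. The lipid transporter ABCA12 overlapped between groups, at 58.5, 677 and 349.9 CPM in MGNS and 66.1, 102 and 71.7 in MGHS.

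The envelope list and the keratins parted. Of 12 cornified-envelope genes 8 were below 0, with a median of -0.55 that was -0.23 without stromal-marker nuclei. TGM3 stood at 3206, 2030 and 3291 CPM in MGNS and 687, 479 and 1403 in MGHS, and TGM1 at 489, 496 and 467 CPM and 270, 234 and 335 CPM. PADI1 lay the other way, at 120, 31.0 and 83.0 CPM in MGNS and 175, 290.2 and 153 in MGHS. Of 12 keratins 9 were above 0, with a median of 0.95 (1.13 without stromal-marker nuclei). KRT13, the mucosal suprabasal keratin, stood at 57.1, 145 and 141 CPM in MGNS and 326, 589 and 872 in MGHS, and KRT36 at 2116, 1453 and 2160 CPM and 3401, 4167 and 4683 CPM. KRT23 lay lower in MGHS, at 21.8 to 40.4 CPM against 54.4 to 114. The membrane protease matriptase, ST14, stood at 101, 149 and 101 CPM in MGNS and 50.7, 53.6 and 56.1 in MGHS. Among differentiation transcription factors 23 of 27 were below 0, with a median of -0.53 (-0.33 without stromal-marker nuclei).

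Respiration and antioxidant genes mostly lay higher in MGHS. All 25 oxidative phosphorylation genes were above 0 (median 0.62, and 0.72 without stromal-marker nuclei), and 12 of them did not overlap, against 12.3% of all genes on that side. NDUFB6, a subunit of complex I, stood at 36.9, 19.4 and 42.5 CPM in MGNS and 73.7, 62.6 and 102 in MGHS (1.28 ± 0.35; 0.85 above the library background). Of 27 NRF2 and glutathione genes 18 were above 0 (median 0.67). GPX1, which reduces hydrogen peroxide with glutathione, stood at 18.1, 11.3 and 19.5 CPM in MGNS and 109.7, 34.1 and 154 in MGHS, and thioredoxin, TXN, at 125, 149 and 207 CPM and 475, 259 and 998 CPM. MGST1, a membrane glutathione transferase, stood at 158, 174 and 225 CPM in MGNS and 365, 325 and 515 in MGHS. SLC7A11, the cystine importer, lay the other way at 45.3, 11.9 and 177 CPM in MGNS and 6.49, 0 and 8.02 in MGHS.

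Of 18 selenoprotein genes 14 were above 0 (median 0.64). Of 20 genes of interleukin-17 and interleukin-22 signalling and epithelial defence 14 were below 0 (median -0.37), and interferon-response genes had a median of -0.12 over 24.

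Of 11 ketogenesis genes 10 were above 0, with a median of 0.70 (0.84 without stromal-marker nuclei). Basal genes beyond the rule's own summed to 668, 1054 and 835 CPM in the upper-marker nuclei of MGNS and 1357, 810 and 1826 in MGHS, with overlap. Of the 12 tested, 11 were above 0, with a median of 1.22 (1.29 without stromal-marker nuclei), and their part in the higher mitochondrial and keratin values was not tested. Of 24 glycolysis genes 14 were below 0 (median -0.15). HK2, a hexokinase, stood at 36.9, 333 and 47.3 CPM in MGNS and 6.49, 15.3 and 4.66 in MGHS; its difference of -3.99 was -2.37 without MGNS 2.

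Ion transport lists lay near the middle of all genes. The median was -0.01 for 12 anion exchange genes (0.30 without stromal-marker nuclei), 0.15 for 11 sodium-proton exchange genes, 0.07 for 14 sodium and potassium genes and -0.12 for 17 TRP and magnesium genes. Single members did not overlap between groups in either direction. Higher and lower in MGHS were 2 and 2 of the 12 anion exchange genes and 1 and 1 of the 11 sodium-proton exchange genes. The counts were 3 and 2 of the 14 sodium and potassium genes and 2 and 3 of the 17 TRP and magnesium genes. Over all genes the shares were 12.3% and 12.2%, and 0 of these list members passed the test. On the higher side were CLCN2, a chloride channel, at 19.5, 7.10 and 16.3 CPM in MGNS and 51.9, 38.97 and 42.95 in MGHS, and FXYD3, a regulator of the sodium-potassium pump, at 225, 245 and 294.7 CPM and 469.5, 382.7 and 700.1 CPM. TRPC6, a cation channel, stood at 9.06, 3.87 and 15.5 CPM in MGNS and 54.3, 18.1 and 69.3 in MGHS and was too low to be tested without stromal-marker nuclei. On the lower side were SCNN1B, a subunit of the epithelial sodium channel, at 24.4, 30.02 and 28.2 CPM in MGNS and 5.90, 9.05 and 10.1 in MGHS, and TRPV3, a warmth-gated cation channel studied in the rumen, at 163, 246 and 193 CPM and 64.9, 98.8 and 54.6 CPM. The anion transporters SLC26A9, at 44.6, 109.7 and 54.4 CPM in MGNS and 34.2, 0.696 and 12.7 in MGHS, and SLC26A7, at 20.2, 29.4 and 22.2 CPM and 8.85, 12.5 and 5.43 CPM, did not overlap either. EREG, a ligand of the EGF receptor, stood at 121, 88.1 and 69.1 CPM in MGNS and 10.6, 17.4 and 40.6 in MGHS, and 11 of 12 EGF-family genes were below 0 (median -0.31). ARG2, the mitochondrial arginase, stood at 17.4, 28.7 and 21.5 CPM in MGNS and 5.90, 12.5 and 9.31 in MGHS.

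**Figure D5:**
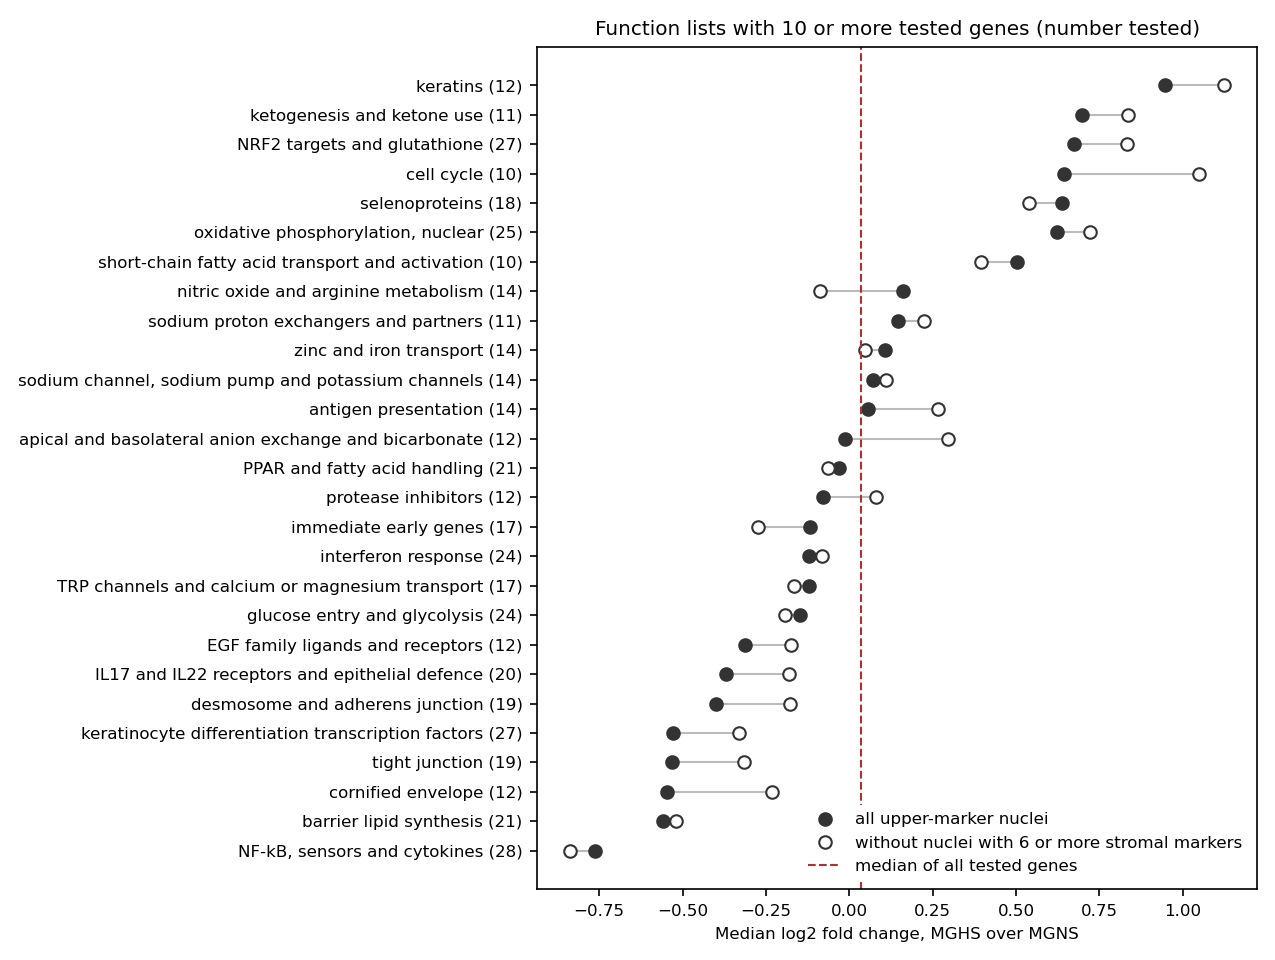
Median log2 difference of MGHS over MGNS for each function list with at least 10 tested genes (number in parentheses), in all upper-marker nuclei (filled) and without stromal-marker nuclei (open); the dashed line is the median of all tested genes, 0.04. Keratins (0.95) and ketogenesis (0.70) lie to the right and NF-kB, sensors and cytokines (-0.76) to the left.

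Whether the group difference in upper-marker nuclei differed from that in the neighbouring layers was asked with an interaction term in edgeR's quasi-likelihood fit. Against outermost nuclei 1 of 13068 genes (0.00765%) passed, CADM2 (difference of differences 3.63 ± 0.42, adjusted p = 0.0196), with 52.1, 29.2 and 25.8 CPM in outermost nuclei of MGNS and 44.9, 23.5 and 29.3 in MGHS. Without stromal-marker nuclei CADM2 had 0.60, and limma-voom called 0 genes (1303 under 0.05 before adjustment). Next was ATP1B1, the beta subunit of the sodium-potassium pump, at 2.12: in outermost nuclei it stood at 92.1, 82.6 and 115 CPM in MGNS and 11.1, 14.6 and 12.9 in MGHS, while upper-marker nuclei had 11.2, 19.04 and 27.8 and 10.6, 18.1 and 12.4 CPM. HERC4, a ubiquitin ligase, was on the opposite side at -1.93 ± 0.30: outermost nuclei had 2082, 1230 and 2030 CPM in MGNS and 6819, 6013 and 3514 in MGHS, and upper-marker nuclei 461, 409 and 430 and 529, 423 and 335 CPM. ATP1B1 and HERC4 did not pass (adjusted p = 0.115 each in edgeR's quasi-likelihood test).

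Against spinous nuclei 28 of 10997 genes (0.255%) passed, 26 with the higher difference in upper-marker nuclei. One of the rule's own genes, SOX6, is among them and is left aside, which leaves 27; limma-voom called 0 (755 under 0.05 before adjustment). They were led by DMD, the dystrophin gene, at 2.60 ± 0.32 (edgeR quasi-likelihood adjusted p = 0.00624): upper-marker nuclei had 21.6, 26.5 and 48.1 CPM in MGNS and 120, 43.1 and 133 in MGHS, and spinous nuclei 33.96, 32.6 and 58.5 and 32.3, 9.38 and 20.6 CPM. Without stromal-marker nuclei the DMD value was 0.10. CADM2 (4.62 ± 0.65), the sialyltransferase ST6GALNAC3 (3.82 ± 0.53), PKHD1L1 (6.48 ± 0.95) and the matrix glycoprotein RELN (3.72 ± 0.57) followed, and PKHD1L1 was at 0 CPM in spinous nuclei of MGHS 1 and MGHS 2. Spinous nuclei numbered 574 in all, and 1 molecule there was worth 2.31 CPM in MGHS 1. Without stromal-marker nuclei ST6GALNAC3 had 3.20 and did not pass, and CADM2, PKHD1L1 and RELN were too low to be tested. Of the 2 genes (0.02%) that passed then, 1 lay outside the rule, ARHGAP24, with -2.46 there and -0.54 with all nuclei. GSDMC, a pore-forming gasdermin, did not pass at -1.41: upper-marker nuclei had 109, 150 and 72.7 CPM in MGNS and 40.7, 25.8 and 29.2 in MGHS, and spinous nuclei 90.2, 128 and 117 and 106, 58.2 and 82.6 CPM. Against basal nuclei 0 of 14229 genes passed in edgeR and 0 in limma-voom; 1612 in edgeR and 1744 in limma-voom were under 0.05 before adjustment.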

How the data were processed

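Droplet single-nucleus libraries of rumen epithelium from 6 lambs were read from the authors' deposited matrices. The deposited values are whole UMI counts, which the authors made with Cell Ranger (67553 barcodes, 268011559 UMIs); its version is 8.0.0 per the file headers and 2.1.1 in the submitters' processing notes. Build, annotation and the barcode rule: not given in the sources used here. All 26741 gene IDs matched RefSeq symbols (names only) of assembly ARS-UI_Ramb_v3.0. The nuclei, the lists and the rule for named genes were chosen with earlier results of these data known.

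Outermost nuclei carried at least 4 of the 7 outermost genes; basal nuclei at least 4 of the 6 basal genes; spinous nuclei both DSC1 and DSG1 with at most 2 upper markers. Scrublet (scanpy 1.11.5, Python 3.11.15) was run per library; where it called under 0.5%, the top scores at 0.8% per 1000 nuclei were taken. Doublets were kept, and left out in an alternative. UMIs were summed per animal and layer, filtered with filterByExpr (minimum count 10), scaled by TMM and tested with the robust quasi-likelihood F test of edgeR 4.0.16 (R 4.3.3) with Benjamini-Hochberg adjustment at 0.05; interactions were fitted over both layers with the animal as a block. DESeq2 1.42.0 and limma 3.58.1 served as alternatives, and the fits were tested on simulated data. Single values were compared by exact two-sided permutation over animals (scipy 1.17.1). Shares carry 95% Wilson intervals, which cover counting error only.

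Named were the rule genes, the 10 smallest p in each direction (3 LOC symbols skipped on the higher and 6 on the lower side), list members with the smallest p or no overlap, the 25 leading genes and the smallest p of each interaction. Leaving out nuclei with 6 or more stromal markers, and nuclei at the library background, were alternatives chosen after seeing the data. Some items are not reported here.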

Additional observations from a re-analysis of the deposited data

Results flagged for a closer look

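By the interaction term of edgeR's quasi-likelihood fit, the group difference in upper-marker nuclei differed from that in outermost nuclei for 1 gene and from that in spinous nuclei for 28, 27 of them outside the rule; those with the smallest p in each direction are given. Against outermost nuclei this was CADM2, with a log2 difference of differences of 3.63. Against spinous nuclei they were DMD (2.60), CADM2 (4.62), ST6GALNAC3 (3.82), PKHD1L1 (6.48), RELN (3.72) and, with the lower difference in upper-marker nuclei, LOC132657303 (-1.67) and LOC121817413 (-3.07). Without stromal-marker nuclei CADM2 against outermost nuclei had 0.60 and DMD 0.10, while ST6GALNAC3 had 3.20, LOC132657303 -1.47 and LOC121817413 -2.76, and none of these 5 values passed. CADM2, PKHD1L1 and RELN against spinous nuclei were then too low to be tested.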

How the results depend on the processing

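With 3 animals a group, no direct comparison of a single value can pass the 0.05 threshold (the smallest p is 0.1), and the upper-marker nuclei of MGHS had fewer UMIs. In the test of all genes between groups, where edgeR called 0, DESeq2 called 381, limma-voom 21, no filter on low counts 204, at most 1 outermost gene 161, and leaving out stromal-marker nuclei 2. In the nuclei with at most 1 outermost gene, 10.8%, 10.96% and 22.3% carried stromal markers in MGNS and 43.3%, 33.96% and 40.7% in MGHS. The part of stromal markers in the 161 calls was not tested. Leaving out 1 animal gave 0 to 2 calls. The replicate numbers share only a number: the deviations of same-numbered animals correlated by 0.00839, 0.133 and 0.231, MGHS 1 was closest to MGNS 2, and the replicate block gave 65 calls (47 higher, 18 lower).

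The interaction with outermost nuclei, 1 call, had 0 with limma-voom, 0 without stromal-marker nuclei and 0 to 1 when 1 animal was left out (0 without MGNS 1, MGHS 1 or MGHS 3). The interaction with spinous nuclei, 28 calls, had 0 with limma-voom, 13 at 1000 genes per nucleus, 2 without stromal-marker nuclei and 1 to 57 when 1 animal was left out (49 without MGNS 1, 12 without MGNS 2, 1 without MGHS 1, 57 without MGHS 2 and 4 without MGHS 3). The cause was not tested. The share among 4 layers, lower by 2.16 percentage points in MGHS, ranged from -5.70 to 1.03 when 1 animal was left out, and reversed to 1.03 without MGHS 2. The share of all nuclei, higher by 1.30 percentage points in MGHS, ranged from 0.154 without MGHS 3 to 2.23 without MGHS 2 and was 0.0416 above the library background. The difference in median depth lay between -5270 and -3541 UMIs in the alternatives run.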
